A study of Homo sapiens with 4 samples.

Results

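The genes described here are 9 components of the MHC class I antigen presentation pathway: the heavy chains HLA-B, HLA-C and HLA-E, the light chain B2M, the peptide transporter subunits TAP1 and TAP2, the loading factor TAPBP (tapasin), and the immunoproteasome subunits PSMB8 and PSMB9. They were chosen by symbol from a table of 40205 gene rows, all 9 were found, and all 9 were among the 16098 genes that reached 1 RPKM (reads per gene, divided by its length and by the depth of the library) in at least 1 library. Poly(A) RNA was sequenced paired-end from U87MG and U251, established human glioblastoma lines. Each line carried either a lentiviral hairpin against the splicing factor SRSF1 (sh-SRSF1, labelled KD) or the control hairpin sh-NC (labelled WT). Both arms of both lines were infected at a multiplicity of 20 and selected with puromycin for 1 week, so that WT names a line with a control hairpin and not an untouched one. There was 1 library per line and arm, 4 in all, each from a selected population carrying 1 named hairpin per arm, so no difference within a line could be set against replicates.

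Class I molecules carry short peptides from proteins made inside the cell to the surface, where CD8+ T cells read them and natural killer cells respond to their absence. The proteasome cuts the proteins, and interferon gamma exchanges its constitutive catalytic subunits for immune ones, which changes the peptides produced. TAP1 and TAP2 form the pump that moves peptides into the endoplasmic reticulum, tapasin holds an empty heavy chain and B2M at that pump, and the filled complex leaves for the surface. In gliomas, as in other tumours, the level of this pathway bears on how visible the cells are to T cells.

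All members except B2M lie in the major histocompatibility complex on the short arm of chromosome 6, and B2M lies on chromosome 15. In GENCODE 29 (GRCh38), HLA-E spans chr6:30489467-30494205 on the plus strand and HLA-C chr6:31268749-31272130 on the minus strand. HLA-B has a minus-strand gene model of chr6:31269491-31357188 that runs over HLA-C. TAP2 (chr6:32821833-32838780, minus), PSMB8 (chr6:32840717-32844703, minus), TAP1 (chr6:32845209-32853978, minus) and PSMB9 (chr6:32844136-32859585, plus) lie close together. The PSMB9 gene model runs over TAP1. TAPBP lies at chr6:33299694-33314387 on the minus strand. B2M spans chr15:44711487-44718877 on the plus strand. The values themselves were made on hg19, and no position was converted between builds.

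The heavy chain rows resemble one another, which sets how far a single HLA row can be read. The annotated coding sequences of HLA-B and HLA-C were identical at 1008 aligned bases, 92.6% of the shorter one, while identity was 86.7% for HLA-B and HLA-E and 87.0% for HLA-C and HLA-E. The longest run that HLA-B and HLA-C share has 66 bases, at positions 420 to 485 of the HLA-B coding sequence, and is shown because a read inside it fits both genes:
HLA-B and HLA-C shared run: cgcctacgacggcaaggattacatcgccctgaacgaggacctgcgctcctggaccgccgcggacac
Of all 31-base words of the annotated transcripts, 20.2% in HLA-C, 15.6% in HLA-B and 11.5% in HLA-E also occurred in another annotated gene. The share was 0 for B2M, TAPBP, PSMB8 and PSMB9 and 1.71% for TAP1. For TAP2 it was 80.4%, all of it shared with another gene annotated over TAP2 on the same strand. Reads from that shared part cannot be told apart from reads of that gene. The transcript examined has 2497 bases, whereas the shortest gene model that fits the TAP2 values has 5679 bases. The share of the counted TAP2 reads is therefore not known. PSMB9 overlaps TAP1 and PSMB8 on the opposite strand, and the non-coding gene PSMB8-AS1 overlaps all 3. The words were compared in transcript orientation only, so overlaps on opposite strands do not enter these shares. The sources used here do not give whether strand was used in counting, and reads of overlapping genes cannot be assigned with certainty.

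Promoter windows of 250 bases before the annotated start were available from RefSeq (GRCh38.p14) for 8 of the 9 members, all but HLA-E. Those below are the genes on which the comparisons turn: HLA-B and HLA-C, whose windows match at 226 of 250 bases (90.4%), the neighbours TAP1 and PSMB9, which start 488 bases apart and point away from each other, and TAP2. Each is given 5′ to 3′ on the strand of its gene, and capitals mark 4 motifs searched on both strands: AANNGAAA (similar to an interferon response element), GGANTNNCC (similar to an NF-kB site), TGACG (the core of the cyclic AMP response element) and CCAAT (bound by NF-Y). The windows are chr6:31357180-31357429 (HLA-B), chr6:31272093-31272342 (HLA-C), chr6:32853705-32853954 (TAP1), chr6:32853942-32854191 (PSMB9) and chr6:32838740-32838989 (TAP2).
HLA-B: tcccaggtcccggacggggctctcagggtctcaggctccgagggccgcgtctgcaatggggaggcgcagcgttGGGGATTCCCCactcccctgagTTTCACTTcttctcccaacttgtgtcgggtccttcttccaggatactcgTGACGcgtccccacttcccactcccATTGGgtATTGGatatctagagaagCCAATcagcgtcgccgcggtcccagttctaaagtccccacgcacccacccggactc
HLA-C: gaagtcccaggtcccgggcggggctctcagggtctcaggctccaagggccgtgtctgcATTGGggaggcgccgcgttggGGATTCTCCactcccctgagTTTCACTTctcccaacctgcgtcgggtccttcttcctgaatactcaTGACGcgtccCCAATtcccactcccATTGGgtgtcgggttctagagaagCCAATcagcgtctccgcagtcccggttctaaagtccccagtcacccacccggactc
TAP1: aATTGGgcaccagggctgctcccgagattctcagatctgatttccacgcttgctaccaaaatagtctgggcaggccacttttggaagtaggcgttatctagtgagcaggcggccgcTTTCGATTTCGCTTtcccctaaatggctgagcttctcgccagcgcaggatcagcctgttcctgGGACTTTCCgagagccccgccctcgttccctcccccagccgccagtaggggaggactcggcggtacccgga
PSMB9: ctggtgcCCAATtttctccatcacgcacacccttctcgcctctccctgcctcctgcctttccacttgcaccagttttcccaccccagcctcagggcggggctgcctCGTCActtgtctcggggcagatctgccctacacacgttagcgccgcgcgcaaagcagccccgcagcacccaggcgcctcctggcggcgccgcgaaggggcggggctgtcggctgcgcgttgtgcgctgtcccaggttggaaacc
TAP2: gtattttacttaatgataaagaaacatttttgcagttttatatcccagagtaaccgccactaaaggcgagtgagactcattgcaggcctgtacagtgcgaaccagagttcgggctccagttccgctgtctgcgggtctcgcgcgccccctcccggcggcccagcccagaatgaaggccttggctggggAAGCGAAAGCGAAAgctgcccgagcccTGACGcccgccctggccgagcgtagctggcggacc
The interferon-type motif was found in the windows of HLA-B, HLA-C, B2M, TAP2 and TAPBP and in the TAP1 window shown, and in neither window of PSMB8 nor in that of PSMB9. The TAP1 matches lie between the starts of TAP1 and PSMB9, outside the PSMB9 window. The NF-kB-type motif was found in HLA-B, HLA-C, B2M, TAP1 and TAPBP. TGACG was found in HLA-B, HLA-C, B2M, TAP2, PSMB9 and 1 window of PSMB8, and CCAAT in HLA-B, HLA-C, B2M, PSMB9 and the TAP1 window shown. The TAP1 and PSMB9 windows overlap at their 5′ ends, and their CCAAT match is the same site. No base belonged to different motifs in any window. Among 35116 RefSeq windows of the same length, 20.3% held AANNGAAA, 12.0% GGANTNNCC, 21.2% TGACG and 32.0% CCAAT. A match of letters, or its absence from a window, is a description only, and the letters were chosen after these windows had been viewed.

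Read totals recovered from the RPKM values were 25974900 in U87MG KD, 26298575 in U87MG WT, 27953878 in U251 KD and 25099799 in U251 WT. The members rested on 87 to 56846 reads per library. SRSF1 stood at 14.6 RPKM in U87MG KD and 88.3 RPKM in U87MG WT, and at 15.8 RPKM in U251 KD and 109 RPKM in U251 WT. It was lower in both KD libraries (log2 estimate -2.62 ± 0.16 SE, limma adjusted p = 0.00217). Among leukocyte markers, 4 of 9 were at 0 in all libraries, PTPRC was at most 0.0213 RPKM, and their summed level was 0.525 RPKM in U87MG KD, 1.78 in U87MG WT, 0.716 in U251 KD and 0.825 in U251 WT. The 3 endothelial markers summed to 0.133 to 0.498 RPKM. Of the glioma and astrocyte markers, VIM was at 1065 to 1675 RPKM and CD44 at 124 to 184 RPKM, while GFAP reached at most 1.47 RPKM and SOX2 stood near 0 in both U87MG libraries (0.0460 and 0.121 RPKM).

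SRSF1 knockdown was followed by a lower level of 1 member, PSMB9, in both lines, and by a lower but uncalled level of TAP2. The heavy chains, B2M, TAP1, TAPBP and PSMB8 were not called. In limma on log2(RPKM + 1) with the cell line as a term, 0 members were called higher and 1 was called lower at an adjusted p under 0.05. Over all 16098 genes, 1.16% were called higher and 2.61% lower, and 1 call among 9 members is a single gene and is not read as a change of the pathway. The sources do not say whether libraries came from separate infections, so these p-values cannot be read against a spread between infections. With 1 residual degree of freedom, the variance behind them is drawn largely from all genes. In bulk samples, fewer cells of a kind and less RNA per cell cannot be told apart.

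PSMB9 encodes the immunoproteasome subunit that replaces PSMB6 (β1). It was measured at 3.04 RPKM in U87MG KD and 7.61 RPKM in U251 KD, against 7.19 RPKM in U87MG WT and 16.3 RPKM in U251 WT. Each KD library was lower than the WT library of its own line, but U251 KD lay slightly above U87MG WT. The recovered reads were 87 in U87MG KD and 234 in U251 KD, against 208 in U87MG WT and 449 in U251 WT. Scaled to depth, the KD level was 0.423 times the WT level in U87MG (95% exact counting interval 0.326 to 0.546) and 0.468 times in U251 (0.398 to 0.549). PSMB9 fell by 1.01 ± 0.16 (SE) on the log2(RPKM + 1) scale (limma adjusted p = 0.0240), and the log2 ratio was nearly the same in U87MG (-1.02) and U251 (-1.004). The call was lost under trimmed-mean rescaling of the libraries (limma adjusted p = 0.0616) and without a filter on low values (limma adjusted p = 0.416).

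PSMB8 is the immunoproteasome subunit that replaces PSMB5 (β5), and its gene overlaps PSMB9 on the opposite strand. It stood at 24.3 RPKM in U87MG KD and 44.7 RPKM in U251 KD, against 20.8 RPKM in U87MG WT and 48.8 RPKM in U251 WT. It was thus higher in the KD library of U87MG and lower in that of U251. The limma estimate was 0.05 ± 0.17 (SE, adjusted p = 0.906), and the ratios of reads were 1.17 in U87MG (1.07 to 1.28) and 0.916 in U251 (0.860 to 0.976). The counting intervals exclude 1 in opposite directions, but they cover counting error only.

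TAP2 forms the peptide pump together with TAP1. Its level was 3.29 RPKM in U87MG KD and 12.2 RPKM in U251 KD, against 7.71 RPKM in U87MG WT and 19.2 RPKM in U251 WT. The KD value was the lower one in each line, by a read ratio of 0.426 in U87MG (0.383 to 0.474) and 0.637 in U251 (0.601 to 0.675). The limma estimate was -0.82 ± 0.18 (SE), and the limma adjusted p of 0.0502 missed the threshold. TAP2 passed it with a pseudocount of 0.5 (limma adjusted p = 0.0495), with a filter at 5 RPKM (limma adjusted p = 0.0208) and after quantile normalization (limma adjusted p = 0.0339). It also passed with a mean of at least 30 recovered reads (limma adjusted p = 0.0311). TAP2 missed it with a pseudocount of 0.1, without a trend, under trimmed-mean rescaling and without a filter (limma adjusted p = 0.055, 0.0793, 0.0938 and 0.416). Without the cell line term it was not called either.

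TAP1 is the other subunit of the pump, and its RefSeq start faces away from that of PSMB9 across the interval shown above. It stood at 5.19 RPKM in U87MG KD and 22.4 RPKM in U251 KD, against 5.67 RPKM in U87MG WT and 25.5 RPKM in U251 WT. The arms lay close together in each line, with read ratios of 0.916 in U87MG (0.798 to 1.05) and 0.880 in U251 (0.825 to 0.939). The limma estimate was -0.14 ± 0.16 (SE, adjusted p = 0.661). Within a library, the ratio of PSMB9 to TAP1 RPKM was 0.587 in U87MG KD and 0.340 in U251 KD, against 1.27 in U87MG WT and 0.639 in U251 WT. That of TAP2 to TAP1 was 0.633 in U87MG KD and 0.545 in U251 KD, against 1.36 in U87MG WT and 0.754 in U251 WT. Both ratios were lower in the KD library of each line, so the neighbours did not move in step. These ratios do not depend on library scaling, and they were not tested.

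TAPBP, the gene of tapasin, had 6.86 RPKM in U87MG KD and 11.3 RPKM in U251 KD, against 6.89 RPKM in U87MG WT and 17.2 RPKM in U251 WT. The U87MG libraries were alike, with a read ratio of 0.996 (0.894 to 1.11), whereas the U251 ratio was 0.658 (0.610 to 0.710). The limma estimate over both lines was -0.28 ± 0.19 (SE, adjusted p = 0.434). The difference between the lines was not tested, since no residual degree of freedom remains for an interaction.

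B2M encodes the light chain that every classical class I molecule and HLA-E need to fold. It was by far the most abundant member, at 1225 RPKM in U87MG KD and 2049.95 RPKM in U251 KD, against 1238 RPKM in U87MG WT and 2295 RPKM in U251 WT. Its rank by RPKM among the genes tested was 40 and 11 in the KD libraries of U87MG and U251, against 34 and 14 in their WT libraries. The arms differed little, with a limma estimate of -0.09 ± 0.12 (SE, adjusted p = 0.720). The read ratios were 0.990 in U87MG (0.975 to 1.01) and 0.893 in U251 (0.883 to 0.904).

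HLA-C encodes a classical heavy chain that presents peptides to T cells and is also read by killer-cell immunoglobulin-like receptors. Its row held 76.1 RPKM in U87MG KD and 618 RPKM in U251 KD, against 114 RPKM in U87MG WT and 684 RPKM in U251 WT. The KD value was lower in both lines, more so in U87MG, with read ratios of 0.665 in U87MG (0.635 to 0.696) and 0.904 in U251 (0.889 to 0.920). The limma estimate of -0.36 ± 0.16 (SE, adjusted p = 0.254) was not called.

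HLA-B, another classical heavy chain, stood at 127 RPKM in U87MG KD and 604 RPKM in U251 KD, against 142 RPKM in U87MG WT and 587 RPKM in U251 WT. The read ratios were 0.892 in U87MG (0.862 to 0.922) and 1.03 in U251 (1.01 to 1.04), on opposite sides of 1. The limma estimate was -0.06 ± 0.15 (SE, adjusted p = 0.848), and its sign turned to 0.02 under trimmed-mean rescaling (limma adjusted p = 0.937).

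HLA-E, which presents leader peptides of other class I chains to the NKG2A and NKG2C receptors of natural killer cells, was the heavy chain with the higher KD value in both lines. It stood at 80.1 RPKM in U87MG KD and 101 RPKM in U251 KD, against 73.7 RPKM in U87MG WT and 80.4 RPKM in U251 WT. The KD libraries exceeded their WT libraries by read ratios of 1.09 in U87MG (1.05 to 1.13) and 1.25 in U251 (1.21 to 1.30). The limma estimate was 0.22 ± 0.16 (SE, adjusted p = 0.472), which is not a call.

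Since reads of near-identical copies can be split between rows, the HLA rows were also summed. HLA-B and HLA-C together came to 203 RPKM in U87MG KD and 1222 RPKM in U251 KD, against 257 RPKM in U87MG WT and 1271 RPKM in U251 WT. As deposited, the KD sum of this pair was the lower one in both lines, by less in U251. All 19 single-letter HLA rows together came to 410.3 RPKM in U87MG KD and 2321 RPKM in U251 KD, against 486 RPKM in U87MG WT and 2237 RPKM in U251 WT, with a limma estimate of -0.10 (adjusted p = 0.729).

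**Figure D1:**
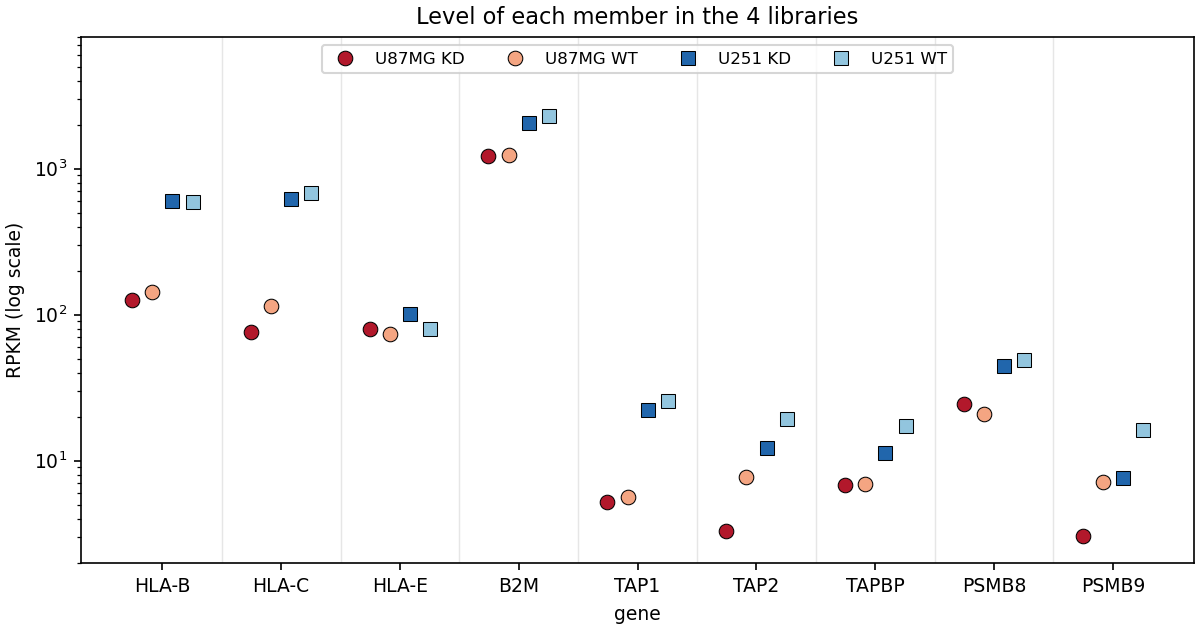
RPKM of the 9 members on a log axis, 1 point per library, with circles for U87MG and squares for U251, and KD left of WT. B2M sits highest in every library, and for every member both U251 points lie above both U87MG points, for HLA-E by a narrow margin (80.4 against 80.1 RPKM at the closest).

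Within a line there is no test, so members were counted at a 2-fold difference on the log2(RPKM + 1) scale. In U87MG, 0 members were at least 2-fold higher in KD and 2 were at least 2-fold lower, PSMB9 and TAP2, both close to the limit at -1.02. Over all genes tested there, 2.33% reached 2-fold in the higher and 3.58% in the lower direction. In U251, no member was past the limit in the higher direction and 1, PSMB9, at -1.004, was past it in the lower one, beside 1.17% and 1.71% of all genes. No member passed the limit after trimmed-mean rescaling, in either line.

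The median log2 ratio of KD over WT across the 9 members was -0.11 in U87MG and -0.16 in U251, beside -0.05 and -0.00 over all genes tested. In each line 7 of 9 members were lower in KD, beside 8927 of 16098 genes in U87MG and 8127 in U251, and in U87MG the members' count became 5 of 9 under trimmed-mean rescaling or quantile normalization. HLA-E was the 1 member that was higher in KD in both lines.

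**Figure D2:**
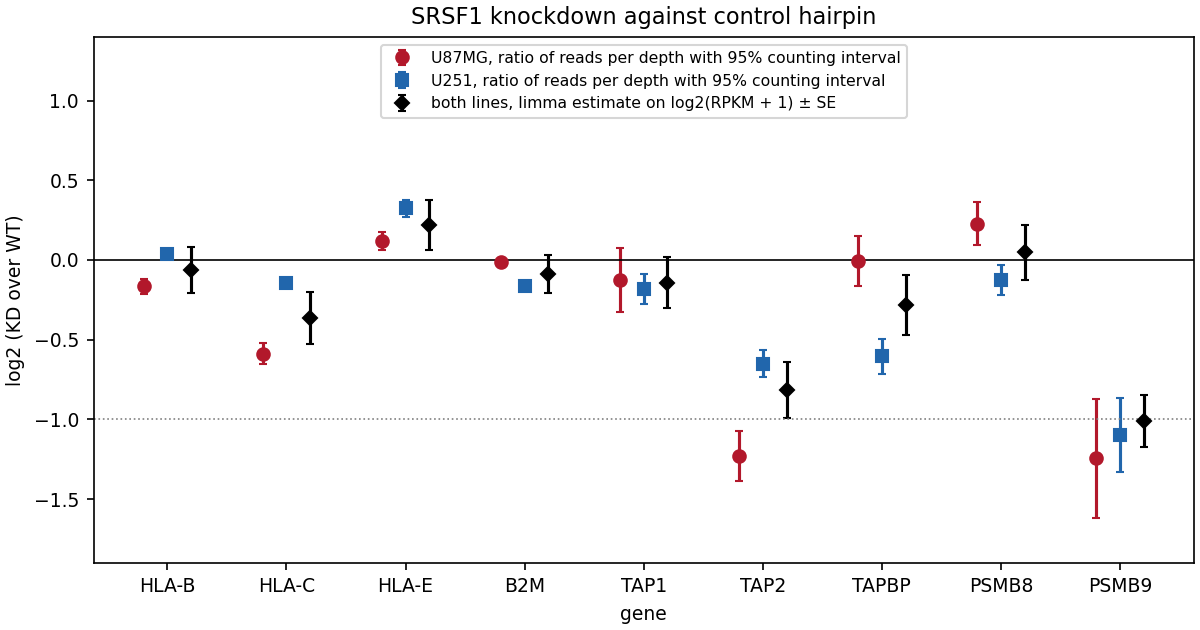
Log2 ratio of KD over WT for each member: red circles for U87MG and blue squares for U251 give the ratio of reads per depth with 95% counting intervals, and black diamonds give the limma estimate on log2(RPKM + 1) with its SE. PSMB9 lies near or below -1 in both lines, TAP2 is below 0 in both, and HLA-B and PSMB8 straddle 0.

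The immunoproteasome was also described against the constitutive subunits that its members replace. PSMB10, the gene of the third immune subunit, had 9.91 RPKM in U87MG KD and 17.9 RPKM in U251 KD, against 25.4 RPKM in U87MG WT and 21.1 RPKM in U251 WT. Of the 31-base words of its annotated transcript, 41.5% also occur in another gene annotated over it on the same strand. Reads from that shared part cannot be told apart from that gene's. Its read ratio was 0.390 in U87MG (0.336 to 0.450) but 0.849 in U251 (0.750 to 0.961), and the limma estimate of -0.75 ± 0.25 (SE, adjusted p = 0.144) was not called. The constitutive subunits had KD values above WT in both lines: estimates were 0.25 ± 0.17 for PSMB5, 0.32 ± 0.16 for PSMB6 and 0.40 ± 0.15 for PSMB7 (SE, limma adjusted p = 0.448, 0.286 and 0.185).

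Set against their constitutive partners within a library, PSMB9 and PSMB10 had lower ratios in the KD library of both lines. The RPKM ratio of PSMB9 to PSMB6 was 0.0245 in U87MG KD and 0.0602 in U251 KD, against 0.0678 in U87MG WT and 0.173 in U251 WT. That of PSMB10 to PSMB7 was 0.0330 in U87MG KD and 0.147 in U251 KD, against 0.113 in U87MG WT and 0.226 in U251 WT. PSMB8 over PSMB5 went the same way only in U251, at 0.576 in U87MG KD and 1.08 in U251 KD, against 0.522 in U87MG WT and 1.58 in U251 WT. These ratios of RPKM are descriptions without a test. Among all 8 other proteasome genes of antigen processing, 0 were called in either direction between the arms. Over all genes 1.16% were called higher and 2.61% lower, so 0 calls in so short a list is no result about it.

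**Figure D3:**
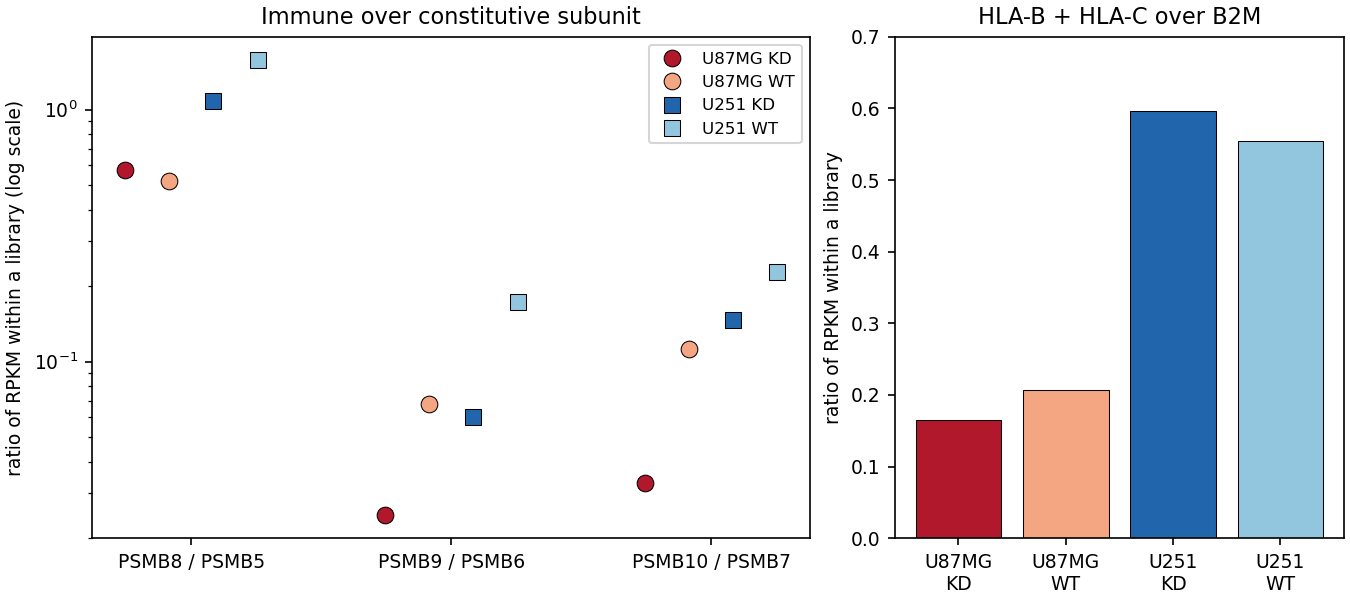
Left, RPKM of each immunoproteasome subunit over the constitutive subunit it replaces, on a log axis, 1 point per library; right, summed RPKM of HLA-B and HLA-C over B2M as bars from 0. PSMB9 over PSMB6 is lower in KD than in WT in both lines, and the sum of HLA-B and HLA-C over B2M is 0.166 and 0.207 in U87MG KD and WT and 0.596 and 0.554 in U251 KD and WT.

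Several genes that act on peptides beside the transporter differed between the arms. Of 11 other peptide loading and trimming genes, all tested, 2 were called higher in KD and 2 lower, beside 1.16% and 2.61% of all genes. The lower ones were the aminopeptidases of the endoplasmic reticulum that trim peptides to class I length. ERAP1 had 2.75 RPKM in U87MG KD and 4.62 RPKM in U251 KD, against 6.83 RPKM in U87MG WT and 10.6 RPKM in U251 WT. ERAP2 had 13.1 RPKM in U87MG KD and 7.29 RPKM in U251 KD, against 22.8 RPKM in U87MG WT and 14.99 RPKM in U251 WT. Both fell in both lines, ERAP1 by 1.05 ± 0.16 (SE, limma adjusted p = 0.0215) and ERAP2 by 0.85 ± 0.17 (SE, limma adjusted p = 0.0387).

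The genes that rose serve the folding of glycoproteins in general as well as class I loading. GANAB, the catalytic subunit of glucosidase II, had 77.3 RPKM in U87MG KD and 61.5 RPKM in U251 KD, against 41.6 RPKM in U87MG WT and 29.4 RPKM in U251 WT (estimate 0.96 ± 0.16 SE, limma adjusted p = 0.0268). CALR, the lectin chaperone calreticulin of the loading complex, had 2792 RPKM in U87MG KD and 1889 RPKM in U251 KD, against 1721 RPKM in U87MG WT and 1358 RPKM in U251 WT (estimate 0.59 ± 0.12 SE, limma adjusted p = 0.0467). All 4 calls were lost under trimmed-mean rescaling, at limma adjusted p-values of 0.0573 (GANAB), 0.0614 (ERAP1), 0.0685 (CALR) and 0.0832 (ERAP2), and also without a filter or without the cell line term, with no change of direction. GANAB, ERAP2 and CALR were not called without a trend either (limma adjusted p = 0.0509, 0.0658 and 0.135). CALR was called in 3 of 9 alternatives, and its estimate was 0.38 after quantile normalization (limma adjusted p = 0.150). The list's median log2 estimate was 0.00, beside -0.03 over all genes.

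Among the other class I and class I-like chains, 0 of 14 tested were called between the arms, beside 1.16% higher and 2.61% lower over all genes. ULBP2 and MICA, ligands of the activating receptor NKG2D, had KD values above WT in both lines, with estimates of 0.47 ± 0.16 and 0.31 ± 0.17 (SE, limma adjusted p = 0.162 and 0.357). HFE, a class I-like chain of iron sensing, had an estimate of -0.60 ± 0.24 (SE, limma adjusted p = 0.203). HLA-J, a pseudogene, had one of 0.49 ± 0.22 (SE, limma adjusted p = 0.243).

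Of 25 regulators of class I transcription, 1 was called lower in KD and 0 higher, beside 2.61% and 1.16% of all genes. This was IRF2, an interferon regulatory factor that binds the same type of element as IRF1, at 11.3 RPKM in U87MG KD and 3.61 RPKM in U251 KD, against 18.5 RPKM in U87MG WT and 8.83 RPKM in U251 WT. It fell by 0.88 ± 0.18 (SE, limma adjusted p = 0.0433), a call lost in 4 of 9 alternatives: trimmed-mean rescaling (limma adjusted p = 0.0958), no trend (0.0724), no filter (0.416) and no cell line term (0.9998). JAK2, a kinase of the interferon gamma receptor, was close to the threshold, with an estimate of -0.70 ± 0.16 (SE, limma adjusted p = 0.0601) and nearly the same ratio in each line.

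The activators NLRC5 and IRF1 were not called. NLRC5, the transactivator of class I genes, had 1.23 RPKM in U87MG KD and 2.20 RPKM in U251 KD, against 1.33 RPKM in U87MG WT and 3.33 RPKM in U251 WT (estimate -0.25 ± 0.20 SE, limma adjusted p = 0.508). IRF1 had 7.06 RPKM in U87MG KD and 9.19 RPKM in U251 KD, against 11.5 RPKM in U87MG WT and 11.5 RPKM in U251 WT (estimate -0.47 ± 0.17 SE, limma adjusted p = 0.180). Both had lower KD values in both lines. The inhibitors of JAK kinases had unequal ratios in the lines. SOCS1 had a log2 ratio of -1.24 in U87MG and -0.17 in U251, and SOCS3 one of 0.01 in U87MG and 1.24 in U251. Their estimates over both lines were -0.71 ± 0.28 and 0.62 ± 0.27 (SE, limma adjusted p = 0.203 and 0.245).

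Transcripts of the interferons themselves were scarce. Of 11 interferon symbols searched, 8 were rows of the table, and the others were older names of genes among these 8. Of the 8 rows, 3 were at 0 in all 4 libraries, and 1, IFNL1 (a type III interferon), reached 1 RPKM. IFNL1 had 1.57 RPKM in U87MG KD and 0 in U251 KD, against 1.29 RPKM in U87MG WT and 0.0465 RPKM in U251 WT. In reads this was 35 in U87MG KD and 29 in U87MG WT, so no difference between the arms was detectable at this depth.

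**Figure D4:**
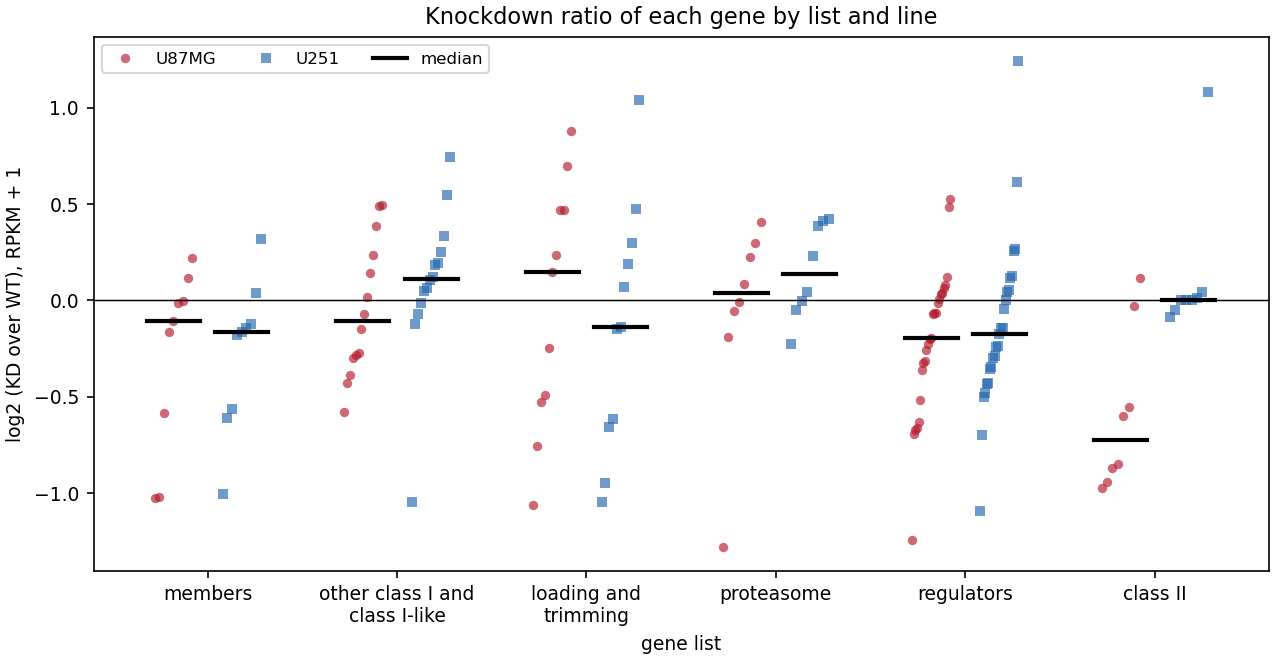
Log2 ratio of KD over WT (RPKM + 1) of each gene that reached 1 RPKM, by gene list, with red circles for U87MG and blue squares for U251; black bars are medians. The members have medians of -0.11 and -0.16, and each list shown has points on both sides of 0 in at least 1 line.

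The larger difference lay between the lines. U87MG had lower levels than U251 of 8 of the 9 members, in KD and in WT alike, and HLA-E alone was not called. With arm as a term in the same limma fit, 0 members were called higher in U87MG and 8 were called lower, while over all genes 21.6% were called higher and 27.0% lower. The median estimate over the 9 members was -1.08 on the log2(RPKM + 1) scale, beside -0.07 over all genes. The arms are the only replicates of a line here, and each line is 1 cell line, so other differences between these lines cannot be told apart from this one.

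Among the members, HLA-C had the largest estimate, followed by HLA-B and TAP1. HLA-C was lower in U87MG, with an estimate of -2.79 ± 0.16 on the log2(RPKM + 1) scale (SE, limma adjusted p = 1.17e-05), so that U251 was 6.90 times higher on that scale. HLA-B was lower in U87MG with an estimate of -2.14 ± 0.15 (SE, limma adjusted p = 2.43e-05), so that U251 was 4.41 times higher. In both genes each U87MG library was far below each U251 library. The non-classical chains HLA-F and HLA-G, which are no members, were also lower in U87MG, with estimates of -2.89 ± 0.17 and -2.18 ± 0.19 (SE, limma adjusted p = 1.24e-05 and 8.20e-05). The 19 single-letter HLA rows gave -2.35 (limma adjusted p = 1.10e-05) as a sum of RPKM. This sum still depends in part on how reads were split, since each row is divided by its own gene length.

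HLA-E stood apart from the other heavy chains, with an estimate of -0.22 ± 0.16 (SE, limma adjusted p = 0.274). Its RPKM relative to HLA-B was 0.631 in U87MG KD and 0.518 in U87MG WT, against 0.167 in U251 KD and 0.137 in U251 WT. HLA-C relative to HLA-B was 0.600 in U87MG KD and 0.805 in U87MG WT, against 1.02 in U251 KD and 1.16 in U251 WT. The proportions of the heavy chain RPKM thus differed between the lines in both arms, with more HLA-E and less HLA-C relative to HLA-B in U87MG. These proportions were not tested. How well the reads of each line fit the hg19 sequence of the HLA genes was not examined, so they may not reflect transcript levels alone.

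The components that serve all heavy chains had smaller estimates than HLA-C. TAP1, TAP2 and TAPBP were lower in U87MG, with log2 estimates of -1.95 ± 0.16, -1.42 ± 0.18 and -0.93 ± 0.19 (SE, limma adjusted p = 6.54e-05, 5.26e-04 and 0.00545). PSMB9, PSMB8 and B2M were lower in U87MG with estimates of -1.08 ± 0.16, -1.02 ± 0.17 and -0.82 ± 0.12 (SE, limma adjusted p = 0.00124, 0.00224 and 0.00122). In order of the size of the estimate, the members ran HLA-C, HLA-B, TAP1, TAP2, PSMB9, PSMB8, TAPBP, B2M and HLA-E. The order of HLA-B and TAP1 depends on the pseudocount, since at 0.1 their estimates were -2.15 and -2.12. Neighbours in this order from PSMB9 to B2M differ by less than their SE. The summed RPKM of HLA-B and HLA-C per RPKM of B2M was 0.166 in U87MG KD and 0.207 in U87MG WT, against 0.596 in U251 KD and 0.554 in U251 WT.

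**Figure D5:**
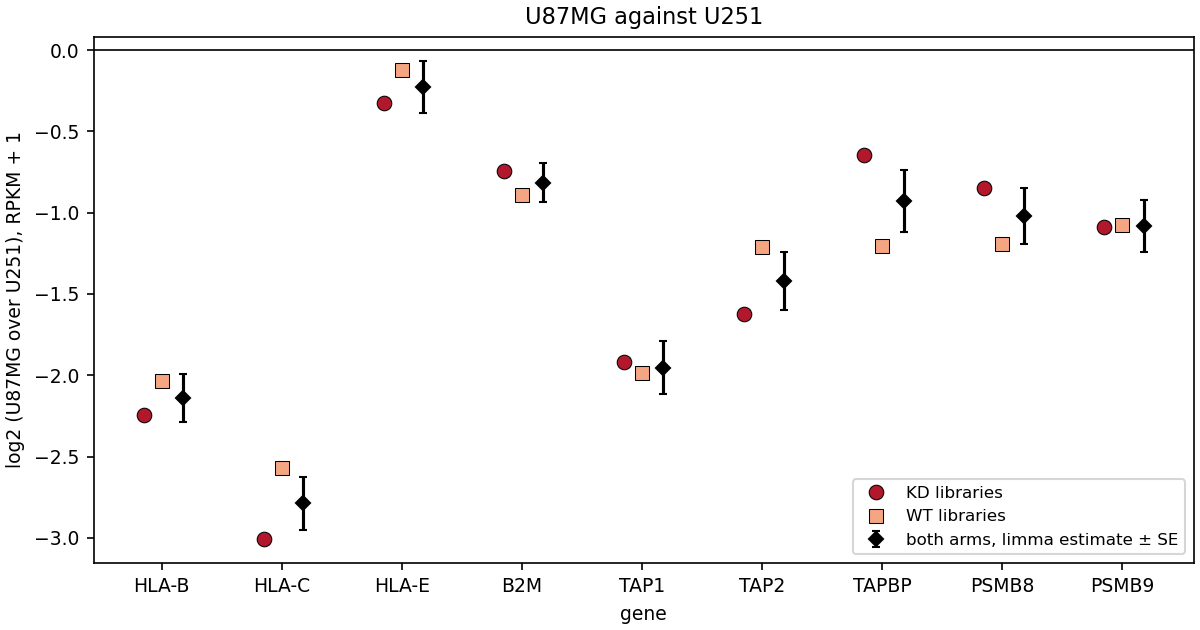
Log2 ratio of U87MG over U251 (RPKM + 1) for each member, from the KD libraries (circles), the WT libraries (squares) and the limma fit over both (diamonds, ± SE). All points lie below 0, with HLA-C lowest and HLA-E nearest to 0.

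The genes around the members did not all follow that direction. The counts below stand beside 27.0% of all genes called lower in U87MG and 21.6% called higher. Of the 14 other class I and class I-like chains tested, 8 were called lower in U87MG, and 4, namely FCGRT, MICB, ULBP1 and ULBP3, were called higher. Of 11 other loading and trimming genes, 7 were called higher in U87MG and 1, ERAP1, lower (-0.57 ± 0.16 SE, limma adjusted p = 0.0207). The constitutive subunit PSMB7 was higher in U87MG (1.28 ± 0.15 SE, limma adjusted p = 3.63e-04), and no other of the 8 proteasome genes was called. Of the 25 regulators, 8 were called lower in U87MG and 3 higher. NLRC5 was among the lower ones, with an estimate of -0.71 ± 0.20 (SE, limma adjusted p = 0.0192), and IRF2 and SOCS1 were among the higher ones, with 1.20 ± 0.18 and 1.12 ± 0.28 (SE, limma adjusted p = 0.00122 and 0.0124).

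Across the 4 libraries the 5 non-member genes with a profile nearest to the mean profile of the members were PTPRA, PON2, SUMO3, UHMK1 and SCLT1. The search covered 7298 genes with at least 5 RPKM in every library, and the Euclidean distance between centred log2(RPKM + 1) profiles was 0.0944 for PTPRA and 0.114 for SCLT1. PTPRA, a receptor tyrosine phosphatase, had 8.48 RPKM in U87MG KD and 10.4 in U87MG WT, against 25.5 in U251 KD and 28.5 in U251 WT. The members themselves lay farther from their own mean, at distances from 0.512 for PSMB8 to 1.43 for HLA-C. The 4 libraries share 2 lines, so this nearness is a description over few points.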

How the data were processed

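Gene values are RPKM, made by the authors and deposited as 1 table of the 4 libraries. Bowtie 0.12.2 and hg19 are named in the submitters' processing notes. How reads were counted, on which annotation, with or without strand, and what was done with reads of several fits is not given in the sources. All 4 columns matched a sample title, and groups were taken from those titles. The members and gene lists were chosen with earlier results of these data known.

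Values were compared as log2(RPKM + 1) with limma 3.58.1 in R 4.3.3 (terms for arm and cell line, eBayes with an intensity trend, two-sided, Benjamini-Hochberg adjustment over 16098 genes at 1 RPKM or more in at least 1 library). With 1 residual degree of freedom, the variance of a gene is drawn largely from all genes. Whole reads were recovered from the steps of the RPKM values: 27928 of 27973 genes above 0 (99.8%) were whole within 0.01 reads in every library, for gene models up to 40000 bases. They are the smallest whole numbers that fit, so the true reads can be a multiple of them, and 19% of genes multiplied by random factors also came out whole. They served for counting intervals (95% Clopper-Pearson on the KD share of a gene's reads, scaled by depth), which cover counting error only, and for 1 filter. The fit was tested on simulated data before use.

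Besides the members, the text names SRSF1, NLRC5, IRF1, the PSMB and HLA genes given, and up to 4 genes per list with the largest absolute mean log2 ratio of the lines. The 5 nearest profiles were sought among genes at 5 RPKM or more in every library. Some genes that this rule names are not reported here. Genes named outside this rule (FCGRT, MICB, ULBP1, ULBP3 and the marker genes) were chosen after their values were seen or as fixed markers. Alternatives were pseudocounts of 0.1 and 0.5, no filter, a filter at 5 RPKM, trimmed-mean rescaling, quantile normalization, no trend, no term for line or arm, each line or arm alone, and, added after the data were seen, a mean of at least 30 recovered reads. Positions come from GENCODE 29 and promoters from RefSeq. Scripts used Python 3.11.15 with numpy 2.4.6 and pandas 2.3.3.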

Additional observations from a re-analysis of the deposited data

Results flagged for a closer look

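Each of the following genes had log2(RPKM + 1) ratios of KD over WT with opposite signs in the lines. The difference between lines was not tested in any of them, since 1 library per line and arm leaves no degree of freedom for it. Among the members, the U87MG ratio minus the U251 ratio was -0.20 for HLA-B (-0.16 in U87MG and 0.04 in U251) and 0.34 for PSMB8 (0.22 in U87MG and -0.12 in U251). After quantile normalization HLA-B was below 0 in both lines, at -0.20 in U87MG and -0.18 in U251. The non-classical heavy chain rows HLA-F and HLA-G were lower in KD in U87MG and higher in KD in U251, by differences of -0.32 and -0.53. The heavy chain rows share sequence, so these are not separate observations. IFNL1 gave 0.24, resting on 35 reads in U87MG KD, 29 in U87MG WT, 0 in U251 KD and 1 in U251 WT. HLA-DRB1, a class II chain, gave -0.98, with 131 reads in U87MG KD, 284 in U87MG WT, 1 in U251 KD and 0 in U251 WT.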

How the results depend on the processing

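Members called lower in KD numbered 2 instead of 1 with a pseudocount of 0.5, a filter at 5 RPKM, quantile normalization or a mean of at least 30 recovered reads (added after the data were seen), since TAP2 joined PSMB9. They numbered 0 without a filter, under trimmed-mean rescaling and without the cell line term. PSMB9 had limma adjusted p-values from 0.00745 to 1 over the alternatives and TAP2 from 0.0208 to 1. Members at least 2-fold lower within U87MG numbered 0 instead of 2 under trimmed-mean rescaling and quantile normalization, and within U251 0 instead of 1 under trimmed-mean rescaling. HLA-B turned to 0.02094 (log2 estimate) under trimmed-mean rescaling, and the HLA-E row on its own had 0.22 where the HLA sum had -0.10. Trimmed-mean rescaling divided out log2 offsets of -0.10 (U87MG KD), 0.02 (U87MG WT), 0.02 (U251 KD) and 0.06 (U251 WT). It thus raised U87MG KD and lowered the other libraries.

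Over all genes, calls between the arms numbered 186 higher and 420 lower, 33 and 33 under trimmed-mean rescaling, 303 and 505 after quantile normalization, 88 and 172 without a trend, 301 and 608 at 5 RPKM, 287 and 635 at 30 reads, and 0 and 0 without a filter or without the cell line term. At an unadjusted p under 0.05 the last of these gave 79 and 183, and no filter gave 1234 and 1890. Between the lines, 8 members were lower in U87MG under every alternative except no filter (6, B2M and TAPBP lost at limma adjusted p = 0.119 and 0.0679) and no arm term (6, TAP2 and PSMB9 lost at 0.0566 and 0.151). Calls over all genes there numbered 3482 higher and 4347 lower, and 1856 and 2430 without a filter or 1960 and 2482 without the arm term. The causes were not tested. The cell line term pairs the KD and WT libraries of a line, and the labels hold no replicate number for a further block. With 1 residual degree of freedom, small changes of the members cannot be told from none.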

Other observations

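MHC class II genes present peptides from outside the cell to CD4+ T cells, and their summed RPKM was higher in U87MG than in U251. Without a filter, the 13 genes summed to 18.3 RPKM in U87MG KD and 34.7 in U87MG WT, against 2.41 in U251 KD and 1.08 in U251 WT. Of 13 class II genes, 8 reached 1 RPKM in at least 1 library, and 7 of these were called higher in U87MG and 1 lower (limma adjusted p under 0.05). Over all genes, 21.6% were called higher and 27.0% lower. Each of the 7 reached 1 RPKM only in U87MG, and the gene called lower only in U251. The filter thus largely fixed these directions, and the counts are not read as a result about the set. CD74, the invariant chain, had 4.03 RPKM in U87MG KD and 8.89 RPKM in U87MG WT, against 0.149 RPKM in U251 KD and 0.190 RPKM in U251 WT. HLA-DRB1, a β chain, had 4.12 RPKM in U87MG KD and 8.83 RPKM in U87MG WT, against 0.0293 RPKM in U251 KD and 0 in U251 WT. The estimates of U87MG minus U251 were 2.59 ± 0.25 for CD74 and 2.81 ± 0.26 for HLA-DRB1 (SE, limma adjusted p = 1.38e-04 and 1.13e-04). The line with the lower HLA-B and HLA-C levels had the higher class II sum, a difference that was not tested.

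Between the arms, 0 class II genes were called, beside 1.16% higher and 2.61% lower over all genes. In U87MG, 7 of the 8 had lower KD values, with a median log2 ratio of -0.72, beside 8927 of 16098 genes and a median of -0.05 over all. Some of the 8 reached 1 RPKM only in U87MG WT, so the filter favoured lower KD values for them. The count and the median are therefore not read as a change of the set. CD74 rested in U87MG on 176 reads in KD and 393 in WT, a ratio of 0.453 (95% exact counting interval 0.377 to 0.543). The leukocyte markers summed to 0.525 RPKM in U87MG KD and 1.78 RPKM in U87MG WT. CSF1R was the largest of them, at 0.251 RPKM in KD and 1.401 RPKM in WT, while PTPRC was at 0.0213 RPKM in KD and at 0 in WT. The part of these markers in the class II values was not tested. HLA-DOB, the β chain of the class II modulator HLA-DO, was the gene lower in U87MG (-0.96 ± 0.29 SE, limma adjusted p = 0.0264). This gene, a neighbour of TAP2, had 78 reads in U251 KD and 15 in U251 WT, a ratio of 4.67 (2.66 to 8.74).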
